A study of Mus musculus with 2 samples.

Results

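Ribosomal protein genes were taken from the lists of methylated regions as every autosomal gene whose symbol began with Rpl or Rps and a number, or was Rplp0, Rplp1 or Rplp2, with the Rps6k kinases left out. In all, 42 such genes had at least 1 region in the longer list of either mouse. There were 30 in Pemt-/- and 41 in Pemt+/+, and 29 of them were listed in both. They held 63 of the 95650 autosomal regions of the Pemt-/- list and 80 of the 129116 of the Pemt+/+ list. The rule took 20 genes of the large ribosomal subunit, 14 of the small subunit, the stalk genes Rplp1 and Rplp2, and 5 paralogs (Rpl22l1, Rpl39l, Rpl7l1, Rps27l and Rps4y2). It also took Rps19bp1, whose product binds the ribosomal protein RPS19 and is not a subunit of the ribosome.

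Liver DNA came from 1 Pemt-/- mouse and 1 Pemt+/+ mouse, both on high fat-high sucrose (HFHS) chow from 5 to 25 weeks of age per the series record, and each library's record carries a single animal number. Pemt encodes phosphatidylethanolamine N-methyltransferase, which makes phosphatidylcholine in liver with methyl groups from S-adenosylmethionine. The Methods describe male mice and do not name the strain, and their times for the livers of the enrichment step are shorter than those of the record. Methylated DNA was captured by a methyl-CpG-binding kit and sequenced, so that methylated stretches appear as regions where reads (tags) pile up, and the records, not the Methods, also speak of bisulphite conversion. With 1 library per genotype there are no replicates and no test, every difference below is between these 2 libraries, and the precision is limited by counts of 8 to 55 tags per region. Whole liver was used, so cell types cannot be told apart, and a list of methylated regions does not show whether Pemt is disrupted, which leaves the genotypes as labelled, without a check.

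Ribosomal proteins form the large and small subunits with the ribosomal RNAs, and the acidic proteins of the stalk recruit the translation factors. Their genes are short, expressed in nearly every cell, and begin with a run of pyrimidines by which their mRNAs are controlled together. Their promoters are usually CpG islands, which in most tissues carry little methylation. The genome also holds many processed copies of these genes, and how reads from near-identical copies were placed is not given in the sources used here. Its part in these regions was not tested.

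The promoters of 4 genes are printed to show the CpG dinucleotides that a methyl-CpG capture could read there. They come from RefSeq on build GRCm38.p6, run from 200 bases before to 30 bases from the start, on the gene's own strand, with each CG in capitals. Rpl39l (chr16:10170028-10170257, plus strand) was the protein-coding gene with a listed region over its 5' end. Rps6 (chr4:86857338-86857567, minus strand) had a region close upstream, Rplp2 (chr7:141447451-141447680, plus strand) had one inside the transcript, and Rplp0 (chr5:115559267-115559496, plus strand) had none within 10 kb.
Rpl39l: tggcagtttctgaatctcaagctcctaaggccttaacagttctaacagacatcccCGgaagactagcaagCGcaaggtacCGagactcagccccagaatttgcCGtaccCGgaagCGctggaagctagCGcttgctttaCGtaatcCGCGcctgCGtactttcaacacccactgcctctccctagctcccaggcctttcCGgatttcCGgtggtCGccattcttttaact
Rps6: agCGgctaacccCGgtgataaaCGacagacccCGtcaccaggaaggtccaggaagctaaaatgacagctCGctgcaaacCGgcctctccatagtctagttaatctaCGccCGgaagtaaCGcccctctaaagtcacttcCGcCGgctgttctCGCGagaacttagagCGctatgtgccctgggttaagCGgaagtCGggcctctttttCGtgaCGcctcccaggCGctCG
Rplp2: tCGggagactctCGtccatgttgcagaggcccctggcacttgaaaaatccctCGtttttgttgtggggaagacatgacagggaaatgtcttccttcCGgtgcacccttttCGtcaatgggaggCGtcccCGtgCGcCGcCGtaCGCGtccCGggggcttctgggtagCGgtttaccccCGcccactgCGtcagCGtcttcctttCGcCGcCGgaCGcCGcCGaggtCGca
Rplp0: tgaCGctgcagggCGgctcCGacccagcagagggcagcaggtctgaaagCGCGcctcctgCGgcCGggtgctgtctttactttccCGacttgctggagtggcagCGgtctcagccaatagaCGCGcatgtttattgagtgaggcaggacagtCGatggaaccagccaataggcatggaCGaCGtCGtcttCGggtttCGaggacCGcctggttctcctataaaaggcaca
These 230 bases hold 14 CpGs in Rpl39l, 20 in Rps6, 24 in Rplp2 and 18 in Rplp0. The listed regions are on build mm9, for which no genome was used here, so their own sequences are not shown.

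Most methylated regions listed for the ribosomal protein genes lay in the flanks, which also make up most of the DNA searched around such short genes. In Pemt-/-, 1 region overlapped a transcript's 5' end, 11 lay in a transcript body, 4 overlapped a 3' end, 23 lay upstream and 24 downstream, within the 10 kb to which the lists extend. In Pemt+/+ the numbers were 2, 10, 3, 34 and 31. For the 84 genes of the RefSeq table that the rule could take, flanks made up 84.6% of the span and held 75.8% of the pairs of a region and a gene in Pemt-/- and 83.1% in Pemt+/+. For all 20044 autosomal protein-coding genes of the table, flanks made up 28.8% of the span and held 26.7% and 27.3% of the pairs. Flank regions of the members held 706 of the 988 Pemt-/- tags and 1275 of the 1588 Pemt+/+ tags. By gene, 12 of 30 in Pemt-/- and 11 of 41 in Pemt+/+ had a region in the transcript, and over both mice 14 did and 28 had regions in the flanks only. Of all autosomal genes of the table with a region, 9295 of 12526 in Pemt-/- and 10362 of 13460 in Pemt+/+ had one in the transcript. Among genes of 982 to 9647 bp, the length range of the listed members, it was 1140 of 2746 and 1482 of 3183. Flanks are not free of other genes: 18 of the 47 flank regions in Pemt-/- and 25 of the 65 in Pemt+/+ lay inside or across another listed gene. Examples are Klb and Lias beside Rpl9, Wdr46 and Vps52 beside Rps18, Lmln beside Rpl35a and Polr3a beside Rps24.

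**Figure D1:**
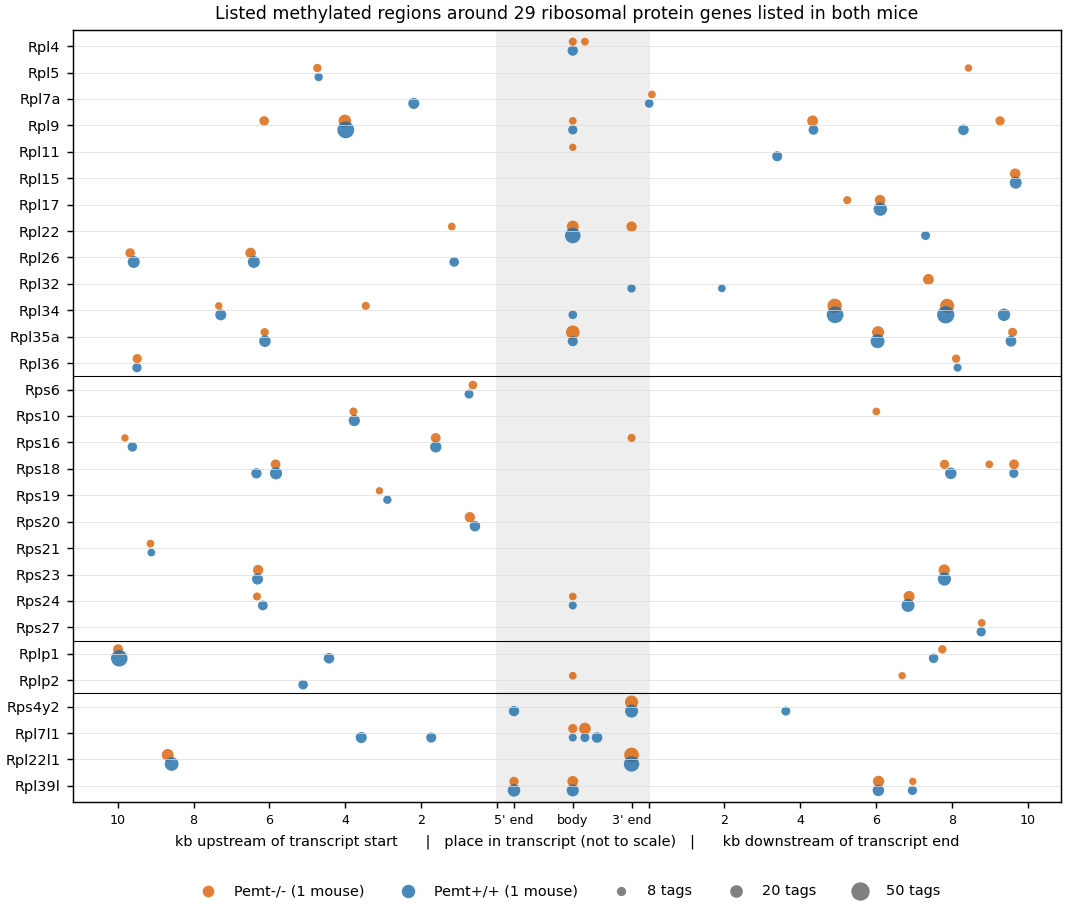
Listed regions around the 29 genes listed in both mice, 1 row per gene, with large subunit, small subunit, stalk and paralogs from top to bottom. The x axis gives the distance in kb upstream of the transcript start or downstream of its end, and the grey band gives the place inside the transcript without scale. Points are single regions of 1 mouse, with an area that grows with the tags. The 5' end column is empty except for Rpl39l in both mice and Rps4y2 in Pemt+/+.

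No gene of the large subunit, small subunit or stalk had a region over its 5' end in either mouse. The overlaps were at 2 paralogs. Rpl39l, a copy of the large subunit gene Rpl39 that is known for expression in testis, had a 5' end region on chromosome 16 from 10169991 to 10170387 with 14 tags in Pemt-/- and from 10170066 to 10170551 with 28 tags in Pemt+/+. Rps4y2, listed with a non-coding RefSeq transcript and with regions that all lay inside or across Tmtc1, had a region of 18 tags over its 5' end on chromosome 6 from 148302704 to 148303229 in Pemt+/+ only. The background is low as well: over 20044 autosomal protein-coding genes of the RefSeq table, 0.998% had a 5' end region in Pemt-/- and 1.5% in Pemt+/+. The 84 genes have the table's protein-coding class, and 2 of them, Rpl31-ps12 and Rpl34-ps1, carry pseudogene symbols. Of the 84, 1 had such a region in each mouse, which is 1.19% (95% Wilson interval 0.210 to 6.44%). The interval includes both background shares, so at this number of genes no difference from other genes was detectable. It covers counting error only, as do all intervals here.

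Regions close to a start were few. The start could be placed for 23 listed genes in Pemt-/- and 28 in Pemt+/+, and the median distance from it to the nearest region was 2594 bp and 2649 bp. Within 500 bp of the start there was a region at 1 gene in Pemt-/- and at 3 in Pemt+/+, namely Rpl39l, Rps4y2 and Rpl34, whose body region of 12 tags began 257 bp from the start of one of its transcripts. Nearest upstream were Rps20, with 18 tags at 715 bp in Pemt-/- and 19 at 580 bp in Pemt+/+, and Rps6, with 12 tags at 633 bp and 13 at 736 bp. RPS6 is the small subunit protein phosphorylated by the S6 kinases. The starts farthest from any region among genes with no region in the transcript were those of Rps21 (9113 bp), Rpl36 (8961 bp) and Rps23 (6298 bp).

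Among the large subunit genes, the body was marked at Rpl4, Rpl9, Rpl22 and Rpl35a in both mice. Rpl22, which encodes an RNA-binding protein that cells can do without, had a body region on chromosome 4 of 25 tags in Pemt-/- and 44 in Pemt+/+, about 6 kb into the transcript (6322 and 6031 bp). Its 3' end region of 18 tags and an upstream region of 9 tags at 1191 bp were listed in Pemt-/- only. Rpl35a, a gene mutated in Diamond-Blackfan anaemia, had a body region on chromosome 16 from 33057773 to 33058519 with 33 tags in Pemt-/-, and its counterpart from 33057991 to 33058383 held 17 in Pemt+/+. Its downstream region of 26 and 35 tags and another of 13 and 20 tags lay inside Lmln. Rpl4, whose introns hold small nucleolar RNA genes, had a body region of 10 and 18 tags, and a further one of 9 tags in Pemt-/- only. At Rpl9 the body region held 9 and 14 tags, and the region 4011 bp upstream of the start in Pemt-/- held 28 tags against 52 at 3986 bp in Pemt+/+, the latter being the member region with most tags but one in that mouse.

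The flanks of Rpl34 had the largest tag numbers of the large subunit. Its downstream regions on chromosome 3, at 4906 and 7873 bp in Pemt-/-, held 37 and 36 tags, and those at 4917 and 7835 bp in Pemt+/+ held 51 and 55. Rpl34 had 91 tags in 4 regions in Pemt-/- and 166 in 5 regions in Pemt+/+. A region inside the transcript was listed in 1 mouse only at Rpl11 (8 tags in the body, Pemt-/-), Rpl32 (11 tags at the 3' end, Pemt+/+) and Rpl34 itself (12 tags in the body, Pemt+/+). RPL11 binds the p53 regulator MDM2 when ribosome assembly is disturbed. Rpl7a had a region just past its 3' end, 87 bp away with 9 tags in Pemt-/- and 16 bp away with 12 tags in Pemt+/+. The remaining flank-only genes of both mice (Rpl5, Rpl15, Rpl17, Rpl26 and Rpl36) had 19 to 34 tags each in Pemt-/- and 11 to 65 in Pemt+/+. Rpl14 was listed in Pemt-/- only, by a region of 8 tags, and Rpl12, Rpl13a, Rpl18, Rpl28, Rpl35 and Rpl38 in Pemt+/+ only, by 1 region each of 11 to 17 tags.

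Small subunit genes had regions in the transcript at 2 of the 14 listed genes, and the RefSeq table holds 30 such genes by symbol, Rps27rt included. By mouse it was 2 of 10 listed genes in Pemt-/- and 1 of 14 in Pemt+/+. Of all autosomal genes with a region it was 9295 of 12526 and 10362 of 13460, and in the length range of the listed members 1140 of 2746 and 1482 of 3183. Rps24 had a body region of 9 tags in Pemt-/- and 10 in Pemt+/+, with a downstream region of 21 and 30 tags. Rps16 had a 3' end region of 10 tags in Pemt-/- only, and an upstream region of 16 tags at 1614 bp and 22 tags at 1613 bp. The other 12 were marked in the flanks only. Rps18 had 4 regions in each mouse, with 55 tags in Pemt-/- and 81 in Pemt+/+, and Rps23 had 2 in each, with 40 and 52. Rps10, Rps19, Rps20, Rps21, Rps27 and Rps6 had 1 or 2 regions in each mouse and 8 to 19 tags in Pemt-/- against 9 to 22 in Pemt+/+. Rps19, the gene most often mutated in Diamond-Blackfan anaemia, held 8 and 11 of these, about 3 kb upstream (3098 and 2889 bp). Rps25, with 9 tags downstream, and Rps27a, with 21 tags in 2 upstream regions, were listed in Pemt+/+ only.

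Of the stalk genes, Rplp0, the scaffold of the stalk, had no listed region in either mouse. Rplp1 had flank regions only. At the limit of the lists, Pemt-/- had an upstream region of 354 bp with 17 tags, 9991 bp away. The Pemt+/+ region there, 9959 bp away, was 740 bp long and had 50 tags. These regions overlapped but were not a one-to-one pair, so their tags were not compared. A region of 19 tags 4428 bp upstream was listed in Pemt+/+ only. In Rplp2 no region was shared: Pemt-/- had 9 tags in the body and 8 downstream, and Pemt+/+ had 15 tags 5111 bp upstream.

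Of the 5 paralogs with a listed region, 4 were marked inside the transcript, while Rpl3l and Rpl10l had no region. Of all autosomal genes with a region, 9295 of 12526 in Pemt-/- and 10362 of 13460 in Pemt+/+ had one in the transcript. Of the 6 paralogs in the RefSeq table, which lacks Rps4y2, those with one were Rpl22l1, Rpl39l and Rpl7l1. Over all autosomal genes, with or without a region, the share was 46.4% in Pemt-/- and 51.7% in Pemt+/+. Rpl22l1 had a 3' end region on chromosome 3 with 39 tags in Pemt-/-, the most of any member region in that mouse, and 43 in Pemt+/+. Rps4y2 had a 3' end region of 31 and 30 tags. Rpl7l1, whose product resembles RPL7, had 2 body regions of 14 and 24 tags in Pemt-/- and 3 of 10, 13 and 19 in Pemt+/+. Rpl39l had a body region of 20 and 26 tags besides its 5' end region. Rps27l, a p53-induced relative of Rps27, had 14 tags downstream in Pemt+/+ only, and Rps19bp1 had 2 upstream regions of 11 and 12 tags in Pemt+/+ only. The rule takes symbols as the lists give them, and 2 genes that carry a ribosomal symbol today stood under older ones. Gm6251 (now Rpl32l), on chromosome 10, was covered whole by a region of 36 tags in Pemt-/- and of 26 in Pemt+/+, and C330021F23Rik (now Rps23rg1) had a downstream region of 21 and 49 tags. With these added, the genes with a 5' end region numbered 2 in Pemt-/- and 3 in Pemt+/+.

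Many ribosomal protein genes had no region at all. Of the 84 genes, 29 (34.5%, 25.2 to 45.2%) had one within 10 kb in Pemt-/- and 40 (47.6%, 37.3 to 58.2%) in Pemt+/+, beside 62.5% and 67.2% of all autosomal genes. A region in the transcript was listed for 11 (13.1%, 7.47 to 21.9%) and 10 (11.9%, 6.60 to 20.5%), beside 46.4% and 51.7%. The intervals of the 84 genes excluded the shares of all genes in these 4 cases. Gene length differs between these sets, with a median of 3179 bp in the 84 genes and 17948 bp in all. Among 5526 genes in the length range of the listed members, from 982 to 9647 bp with a median of 4622 bp, which is still longer than that of the 84, 20.6% and 26.8% had a region in the transcript, and 49.7% and 57.6% had one within 10 kb. The interval of the 84 genes included the share of the length range in the transcript in Pemt-/- and not in Pemt+/+, and for any region it included it in Pemt+/+ and not in Pemt-/-. An upstream region was listed for 22.6% and 29.8% of the 84 genes (27.3% and 34.9% of all genes), and a downstream one for 20.2% and 28.6% (29.0% and 36.5%). The intervals of the 84 genes included the share of all genes in each of these 4 cases. The 43 genes without a region include Rplp0, Rpl3, Rpl8, Rps2, Rps3, Rps14 and the paralogs Rpl3l and Rpl10l. Whether each of them was in the authors' annotation was not tested.

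**Figure D2:**
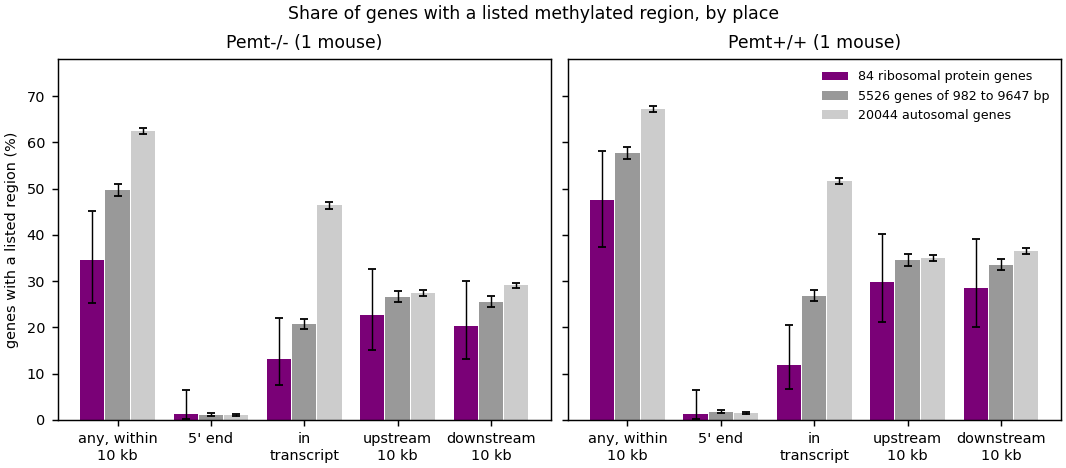
Percent of genes with a listed region, by place, in Pemt-/- (left) and Pemt+/+ (right), 1 mouse each. Bars show the 84 ribosomal protein genes, 5526 genes in the length range of those listed, and 20044 autosomal genes, and error bars are Wilson 95% intervals over genes. In the transcript the ribosomal protein genes lie at 13.1% and 11.9% and all genes at 46.4% and 51.7%, while the upstream and downstream shares lie closer together.

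Per length of DNA, the values of the ribosomal protein genes inside transcripts rest on 15 pairs in Pemt-/- and 13 in Pemt+/+. They lay above all genes in Pemt-/- and below them in Pemt+/+. Over both flanks together the values were lower in each mouse, and none of these differences was tested. Inside transcripts there were 4.92 region and gene pairs per 100 kb in Pemt-/- and 4.27 in Pemt+/+, beside 3.85 and 5.23 over all genes and 4.97 and 7.15 in the length range. In both flanks to 10 kb the density was 2.80 and 3.81, beside 3.47 and 4.86 over all genes. The first 2 kb past the 3' end held 1 pair in Pemt-/- and 2 in Pemt+/+ (0.595 and 1.19 per 100 kb), beside 2.96 and 4.19 over all genes. From 2 to 5 kb downstream they had 2 and 9 pairs (0.794 and 3.57 per 100 kb), beside 3.44 and 4.77, and from 5 to 10 kb downstream 21 and 19 pairs (5.00 and 4.52), beside 3.95 and 5.57. In the first 2 kb upstream the members had 4 and 6 pairs (2.38 and 3.57 per 100 kb), beside 2.53 and 3.51. These counts are small, and the regions of 1 gene are not independent of each other.

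**Figure D3:**
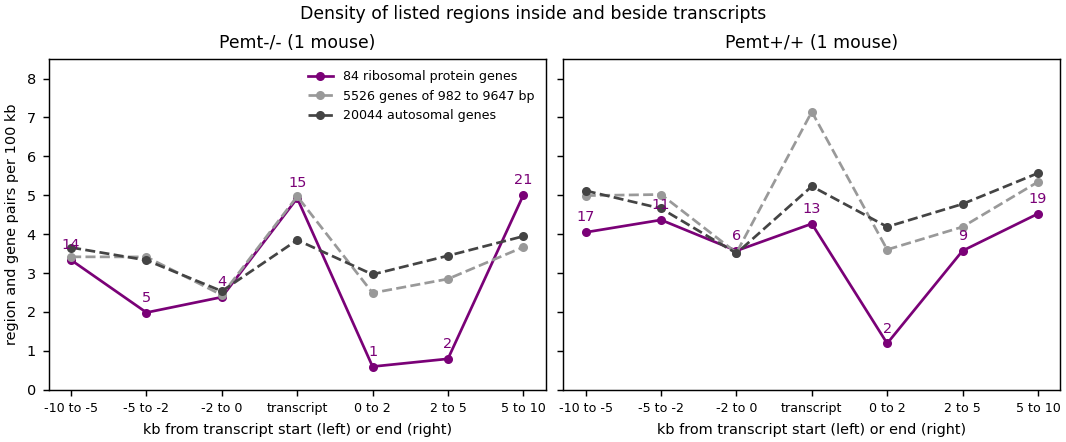
Pairs of a listed region and a gene per 100 kb (y axis) by zone (x axis, kb upstream of the start, the transcript, and kb downstream of the end), in Pemt-/- (left) and Pemt+/+ (right). Purple points are the 84 ribosomal protein genes with their number of pairs, and dashed lines are the genes in the length range of the listed members, 982 to 9647 bp, and all autosomal genes. The purple line is lowest in the first 2 kb downstream, with 1 and 2 pairs.

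The lists of the mice were of unequal length, and so were the sets of member regions. Covered length was 26.6 kb with a mean of 15.7 tags a region in Pemt-/- and 36.1 kb with a mean of 19.9 in Pemt+/+, and such sums move with how much was called. In Pemt-/-, 16 of 63 member regions (25.4%, 16.3 to 37.3%) overlapped no Pemt+/+ region, beside 16.7% of all autosomal regions. In Pemt+/+, 33 of 80 (41.3%, 31.1 to 52.2%) overlapped no Pemt-/- region, beside 38.3%. Both intervals include the background share in this setting, that of Pemt-/- only narrowly (from 16.3%, against 16.7%). Without the paralogs and Rps19bp1 the Pemt-/- share was 29.6% (16.7% of all), and with lists of equal size 39.7% (27.8%). In the upper 50% by score it was 25.9% (21.2%), and with overlap of at least 50% of both regions 30.2% (21.5%). Intervals were not computed for these alternatives. Member regions of 1 mouse only were small, with a median of 9 tags in Pemt-/- and 14 in Pemt+/+, against 16 and 21 for the shared ones. Over all autosomal regions these medians were similar, at 10 and 13 against 14 and 22. Member regions of 1 mouse only with most tags were, in Pemt-/-, downstream of Rpl32 (20 tags), at the 3' end of Rpl22 (18) and upstream of Rpl9 (15), and in Pemt+/+, downstream of Rpl34 (27) and upstream of Rpl7l1 and Rpl7a (21 each).

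Where a region of one mouse overlapped a single region of the other, the tags were compared. There were 46 such pairs, with 797 tags in Pemt-/- and 1058 in Pemt+/+. Their median Pemt-/- to Pemt+/+ ratio was 0.730 (quartiles 0.610 and 0.941), and over all 78303 autosomal pairs it was 0.682, so that ratios are read against the latter. In 7 pairs the ratio was at least 1.5 times that median (15.2%, beside 10.4% of all pairs), and in 2 pairs at most the median over 1.5 (4.35%, beside 11.2%), of which the Rps10 pair lay exactly at that limit. The 11 pairs inside transcripts had a median ratio of 0.900 (quartiles 0.606 and 1.15) and the 35 in flanks of 0.727 (0.612 and 0.890). These quartiles overlap, all autosomal pairs were not split by place, and the difference was not tested. Paralogs are among the pairs inside transcripts: Rpl7l1 (1.40 and 1.26), Rps4y2 (1.03), Rpl22l1 (0.907) and Rpl39l (0.769 and 0.500). The subunit genes there were Rpl35a (1.94), Rps24 (0.900), Rpl9 (0.643), Rpl22 (0.568) and Rpl4 (0.556), so the median of 0.900 does not describe the subunit genes alone.

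Rpl35a had the highest ratio, 33 tags against 17 in its body region, which gives 1.94 (1.09 to 3.46 from the counts). It was followed by both paired body regions of Rpl7l1, with 14 against 10 tags (1.40, 0.635 to 3.09) and 24 against 19 (1.26, 0.698 to 2.29). The interval lay above the median of all pairs for the Rpl35a body region and the latter Rpl7l1 region, 2 of 46 pairs (4.35%, beside 2.54% of all pairs), and below it for 0 (3.32% of all pairs). Regions were called separately in each mouse, at 747 and 393 bp in Rpl35a, so its tags per 100 bp were 4.42 in Pemt-/- and 4.33 in Pemt+/+. In the latter Rpl7l1 region they were 3.93 and 3.87 per 100 bp. Lowest were regions upstream of Rpl34 with 8 against 21 tags (0.381, 0.172 to 0.842), of Rps10 with 10 against 22 (0.455, 0.219 to 0.944) and of Rpl35a with 11 against 23 (0.478, 0.237 to 0.967), and these intervals include the median of all pairs. The Rpl34 region was called at 324 bp in Pemt-/- and 683 bp in Pemt+/+, with 2.47 and 3.07 tags per 100 bp. For Rps10 the tags per 100 bp were 2.27 and 4.76, and for the upstream Rpl35a region 1.96 and 3.37. The 5' end pair of Rpl39l had 14 against 28 tags, a ratio of 0.500 (0.266 to 0.940).

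**Figure D4:**
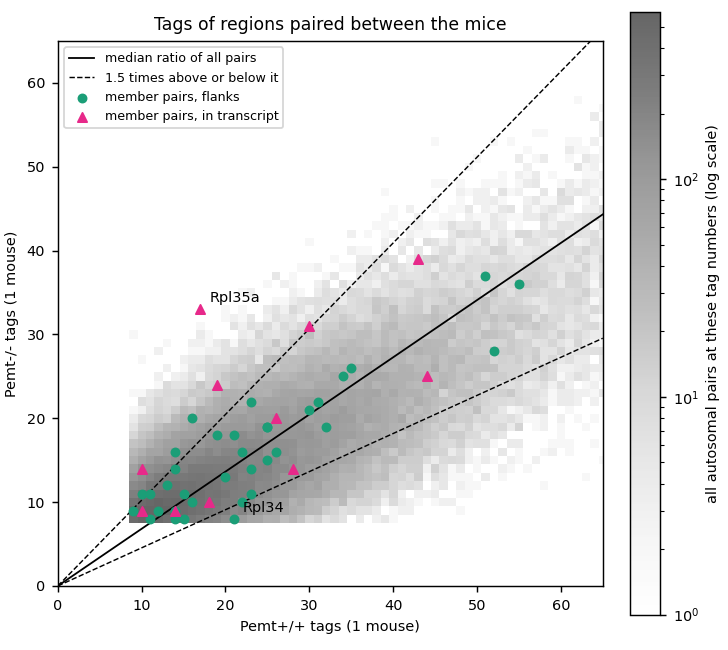
Tags of the 46 paired member regions in Pemt+/+ (x axis) and Pemt-/- (y axis), with triangles inside transcripts and circles in flanks, over all autosomal pairs in grey (log scale). The solid line is the median ratio of all pairs, 0.682, and the dashed lines lie 1.5 times above and below it. Most member pairs lie between the dashed lines, 7 on or above and 2 on or below.

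Each mouse also has a shorter list of regions, whose selection the records do not explain, and these held 2 members in Pemt-/- and 5 in Pemt+/+. This is 2.38% and 5.95% of the 84 genes, beside 5.79% and 13.2% of all autosomal genes and 2.01% and 6.48% of the genes in the length range of the listed members. In Pemt-/- they were the downstream region of Rpl32 with 20 tags and the body region of Rpl35a with 33, both with a false discovery rate (FDR) of 100%. The Rpl35a region overlapped the Pemt+/+ region of 17 tags. In Pemt+/+ they were upstream of Rplp1 (19 tags), Rpl7a (21) and Rpl7l1 (21) and downstream of Rpl32 (9) and Rpl34 (27), with an FDR of 31.3 to 35.0%, and none overlapped a Pemt-/- region. Rpl32 was in both shorter lists with different regions, 5184 bp apart.

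The genes of the mitochondrial ribosome and of translation and ribosome assembly were set beside them. Of 78 mitochondrial ribosomal protein genes, whose median length was 7691 bp, 74.4% had a region within 10 kb in Pemt-/- and 82.1% in Pemt+/+, and 48.7% and 57.7% had one in the transcript. Of 45 translation and assembly genes, with a median length of 14541 bp, it was 75.6% and 80.0%, and 66.7% in the transcript in each mouse. Neither list had a gene with a 5' end region in either mouse, beside 0.998% and 1.5% of all autosomal genes. The intervals, up to 4.69% for the mitochondrial list and 7.87% for the other, include these shares. The shares of both lists with any region were above those of the 84 ribosomal protein genes, which are shorter, and the difference was not tested.

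Promoters were compared by their CpG number in 300 bases, from 250 before to 50 past the start, with 1 promoter a gene, the one with most CpGs. For 63 of the 84 genes a promoter was in the RefSeq table. Their median was 22 CpGs (quartiles 16 and 27), against 16 over 16009 autosomal genes (4 and 26). At least 15 CpGs were found in 79.4% of them and in 52.6% of all. The 12 with a region in the transcript had a median of 22, the 21 with flank regions only 23, and the 30 without a region 20.5, while Rpl39l had 17. The promoters of the mitochondrial ribosomal protein genes had a median of 21 and those of the translation and assembly genes 24. As a mark of the pyrimidine run, the letters CTTTCC were searched on both strands of the 300 bases, and 50.8% of the members and 25.5% of all promoters held them. On the gene's own strand within 25 bp of the start they were in 17.5% and 2.27%. A match describes the letters only.

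**Figure D5:**
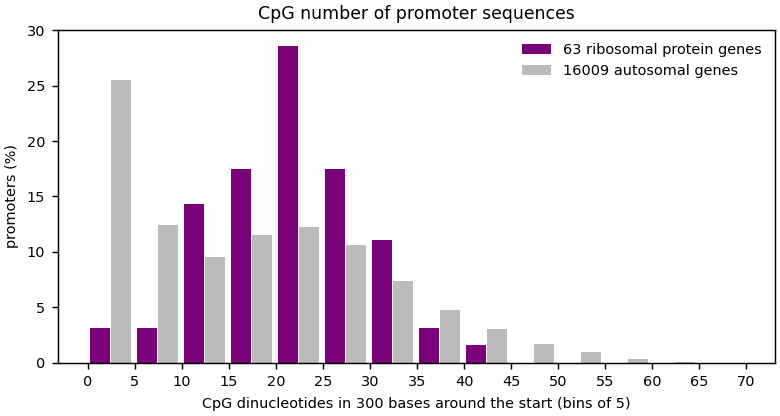
CpG dinucleotides in the 300 bases around the start (x axis, bins of 5) for 63 ribosomal protein genes and 16009 autosomal genes, as percent of promoters (y axis). The ribosomal protein genes gather around their median of 22, while all genes spread widely with a median of 16.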

How the data were processed

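Methylated liver DNA of 1 mouse per genotype was enriched and sequenced by the authors on a Genome Analyzer IIx. CASAVA version 1.8.2, Bowtie and the build mm9 are named in the submitters' processing notes. Region names are those of MACS, and its version, settings and control are not given in the sources used here. The deposited Tags are counts of reads per region. The authors' fold enrichment is a ratio over background, their p-values are deposited as −log10 values multiplied by 10, here called the score, and their FDR is a percent. The lists give no library totals, and depth is known only as the tags in autosomal regions of the longer lists (1554629 in Pemt-/- and 2796810 in Pemt+/+).

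The members and comparison lists were chosen with earlier results of these data known. Named genes follow a rule: 5' end overlaps, the 5 regions with most tags per mouse, the 3 highest and 3 lowest ratios among pairs of at least 20 tags, the 3 largest regions of 1 mouse only, members of the shorter lists, paralogs, stalk genes and the 3 farthest starts. Most other members are named as well, and the values of some are not reported here. Each region was counted once. Its place was taken from the relation to RefSeq transcripts in the lists, and distances to the start from transcript ends inferred from them, whose strand was that of RefSeq in 9690 of 9704 transcripts. Regions overlapped when they shared at least 1 bp. The background was 20044 autosomal protein-coding genes of a RefSeq table of assembly GRCm38.p6, used for names and lengths, and 14029 of 14073 listed genes matched it. Intervals for shares are Wilson 95% intervals, and those of a tag ratio come from the Wilson interval of the Pemt-/- share of both tag numbers. PCR copies are not independent molecules, so they cover counting error only. Calculations used Python version 3.11.15, pandas version 2.3.3, numpy version 2.4.6, scipy version 1.17.1 and matplotlib version 3.10.9, and the overlap and transcript-end steps were tested on simulated lists.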

Additional observations from a re-analysis of the deposited data

How the results depend on the processing

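The median tag ratio of member pairs kept its side of the median of all pairs under the 6 alternatives tried, at 0.725 to 0.753 against 0.650 to 0.684. With the upper 50% of each list by score, which holds fewer regions by construction, the Pemt-/- values were 0 genes with a 5' end region, 7 with a region in the transcript, 11 in the flanks only, 27 regions, 596 tags and a median distance to the start of 5155 bp, and the Pemt+/+ values were 1 gene, 6, 19, 37 regions and 995 tags. Without the paralogs and Rps19bp1, no gene had a 5' end region in either mouse (0 and 0), and 7 in Pemt+/+ had a region in the transcript. With the 2 genes under older symbols, an alternative chosen after seeing the data, 2 genes in Pemt-/- had a 5' end region. Lists of equal size raised the share of Pemt-/- regions found in that mouse only to 39.7%, beside 27.8% of all autosomal regions. Without the paralogs and Rps19bp1 this share was 29.6%, beside 16.7%. Intervals were not computed for these alternatives, so the statement that the interval includes the background share covers the main setting only. Assigned to the nearest transcript only, 18 genes in Pemt+/+ had regions in the flanks only. With genes without a region set at 10 kb, the median distance was 10000 bp in each mouse. In the length range of the listed members, 1.76% of genes had a 5' end region in Pemt+/+. With an FDR of 50% or less, 0 members stayed in the shorter Pemt-/- list, of which 1 of 2124 autosomal regions stayed. Of 56 values under alternatives, 35 stayed within the limits set. No paired analysis was possible because there was a single library of each genotype and no result comes from a test. Reads per region, from 8 tags up, limit every ratio.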
